A study of Bos taurus with 6 samples.

Results

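The transcription factors that give granulosa cells (GC) and luteal cells their identity were followed in cultured bovine GC plated at normal or high density. The members were listed by gene symbol, FOXL2, GATA4, GATA6, NR5A1, NR5A2, RUNX1, RUNX2, CEBPA, CEBPB and WT1, and all rows of the array table with one of these symbols were taken. Of the 10 genes listed, 9 had a row, each with 1 transcript cluster (the group of probes that the array reads as one gene), out of 26773 transcript clusters in all. No row with the symbol CEBPB was found, and this gene was not analysed here. RNA came from 6 GC cultures, 3 plated at normal density (100000 cells per well) and 3 at high density (1000000 cells per well), and each was hybridized to its own Bovine Gene 1.0 ST Array. All 6 cultures were primary GC kept without serum for 9 days with FSH, IGF-1 and androstenedione, so that both densities carried the same hormones and differed in the number of cells plated. Each GC preparation was a pool from follicles below 6 mm of at least 15 cows of undefined cycle stage, which limits a culture as a model of one follicle. The labels do not say whether the cultures of a density came from separate cell pools, so p-values measure the spread between these cultures only. Values are log2 signals after the RMA procedure (background reduction, normalization between arrays and gene-level summary), and a change of 1 on this scale is a doubling of the signal.

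FOXL2 is a forkhead factor that maintains the female fate of the follicle's supporting cells. NR5A1 (steroidogenic factor 1) and NR5A2 (liver receptor homolog 1) are orphan nuclear receptors that bind the same DNA element and activate steroidogenic genes, and NR5A2 is needed for ovulation and luteal function. GATA4 and GATA6 are zinc finger factors of steroid-producing gonadal cells. The Runt factors RUNX1 and RUNX2 bind DNA with the partner CBFB, and both are known from the ovulatory response. CEBPA is a basic leucine zipper factor of that response, and WT1, a zinc finger factor, marks the early gonad and the GC of small follicles. GC are known to pass from a follicular to a luteal programme after the LH surge, while aromatase and gonadotropin receptor transcripts decline.

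With density FOXL2 fell and RUNX2 rose, each by about the fold change threshold of 1.5. NR5A2 and WT1 were higher at high density and passed the false discovery rate (FDR) threshold, but with smaller changes than the fold change threshold asks for. GATA4, GATA6, RUNX1, NR5A1 and CEBPA passed neither. A transcript cluster is termed called when its fold change exceeds 1.5 and its p-value and FDR, from limma's moderated test over all transcript clusters, are below 0.05. By this rule 2 of the 9 factors were called, 22.2%, against 7.49% of all transcript clusters. One of them was higher at high density, as were 3.97% of all transcript clusters, and the other was lower, as were 3.51%. At any fold change 4 factors passed the FDR, 3 higher and 1 lower, which is 44.4% of the factors and compares with 19.1% of all transcript clusters. The signals of the 2 densities did not overlap for 5 factors, 55.6%, against 37.3% of all transcript clusters. The median log2 fold change (high minus normal density) of the factors was 0.12, and that of all transcript clusters was 0.02.

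A background level of 4.62 was taken from the array's 82 reporter control rows as their 95th percentile. Signals of 7 factors lay above it at both densities, WT1 crossed it, and CEBPA lay below it at both. Of all transcript clusters 51.2% had both means at or below it. The shares of all transcript clusters given above thus count many without a measured signal, unlike those of the factors. With such clusters left out, CEBPA among them, 1695 transcript clusters were called, against 2005 with them, and still 2 factors. The number called thus fell by a much smaller part than the 51.2% of clusters left out. A larger share of the remaining clusters was therefore called than of all transcript clusters. For factors with a measured signal, the share called of all transcript clusters given above is too low a comparison. High density replicate 2 stood apart from the other cultures of its density. Its mean Euclidean distance to them over all transcript clusters was 46.3, while this distance was between 31.6 and 41.4 for the other 5 cultures. In 7 of the 9 factors it gave the lowest signal of the high density cultures. Without this culture the number of factors called remained at 2 and the number past the FDR at 4. In these bulk RNA samples a smaller share of cells that express a gene and less RNA of it per cell cannot be told apart.

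**Figure D1:**
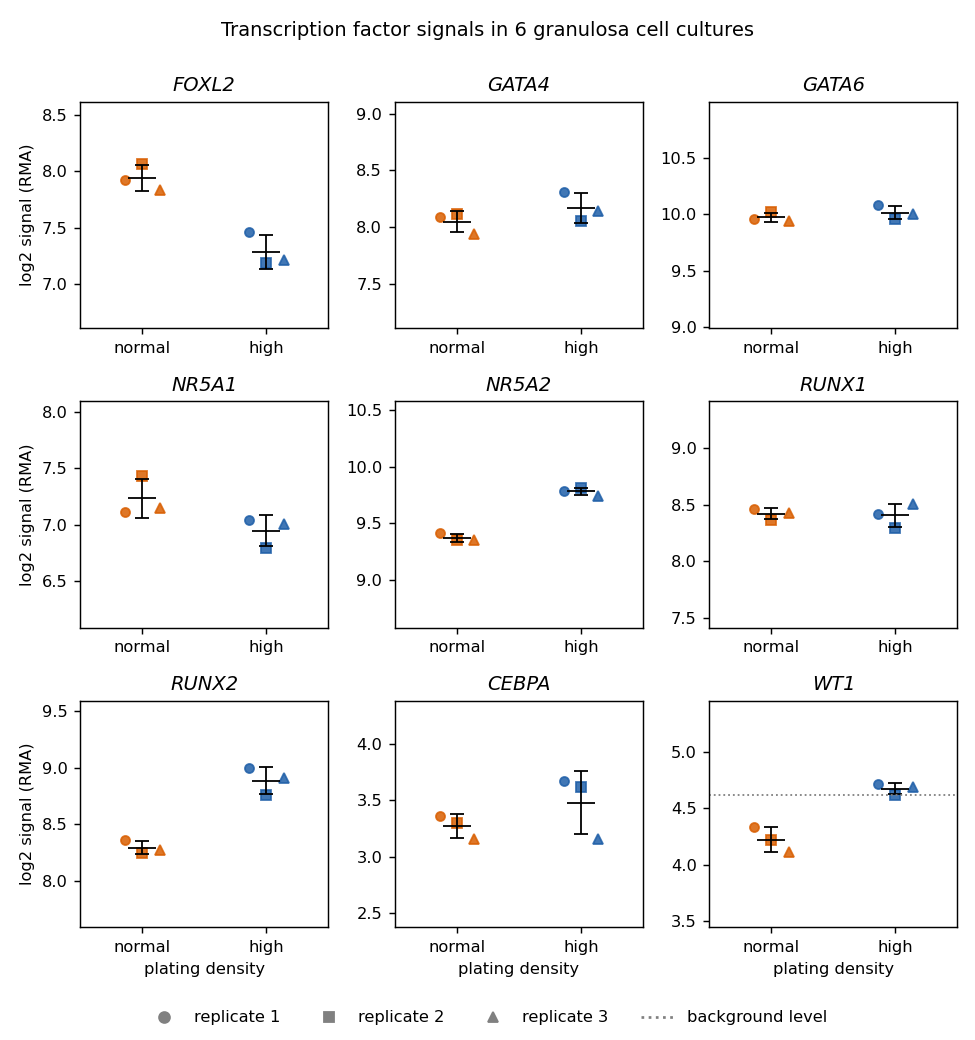
Log2 signals of the 9 factors (vertical axis, a span of 2 log2 units in each panel) at normal and high plating density (horizontal axis); points are single cultures with a symbol per replicate, bars are means ± SD of 3 cultures, and the dotted line is the background level of 4.62. The densities are separate for FOXL2, NR5A1, NR5A2, RUNX2 and WT1 and overlap for GATA4, GATA6, RUNX1 and CEBPA.

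FOXL2 (transcript cluster 12678679, NM_001031750) had log2 signals of 7.92, 8.06 and 7.84 in the normal density cultures and of 7.46, 7.19 and 7.21 in the high density cultures. Each high density culture lay below all normal density cultures. The means were 7.94 ± 0.11 and 7.29 ± 0.15 (SD, n = 3), which is a log2 fold change of −0.65 (standard error, SE, 0.10, adjusted p = 0.00424 by limma). This is a 1.57-fold lower signal, and the 95% interval of the log2 fold change reached from −0.89 to −0.42, so that it holds changes smaller and larger than the threshold of 0.585. FOXL2 stayed called when single cultures were left out in turn, with log2 fold changes between −0.74 and −0.59. Ordered by the size of the fall, FOXL2 stood at place 823 of the 26773 transcript clusters. When the methods' t-test was run without pooling the variances of both densities, the adjusted p of FOXL2 was 0.0659 and it was not called.

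Among the 20573 other transcript clusters with a symbol, those with the profiles most like that of FOXL2 were ZMYND12, PRR15 and ANGPTL2. Likeness was measured as the root mean square difference of the log2 signals over the 6 arrays after each gene was centred on its own mean, and it was 0.05 for each of them. Their log2 fold changes were −0.65 for ZMYND12, which was below the background level at both densities, −0.67 for PRR15 and −0.59 for ANGPTL2, a secreted angiopoietin-like protein.

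NR5A1 (12703959, NM_174403) gave log2 signals of 7.11, 7.43 and 7.15 at normal density and of 7.04, 6.79 and 7.01 at high density. The densities did not overlap, but the highest high density culture was only just below the lowest normal density culture. The means were 7.23 ± 0.18 and 6.95 ± 0.13 (SD, n = 3). The log2 fold change was −0.28 (SE 0.11, 95% interval −0.55 to −0.02), and with an adjusted p of 0.13 from limma it did not pass the FDR. Without normal density replicate 2 it was −0.18 (adjusted p = 0.332 by limma).

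NR5A2 (12737211, NM_001206816) was measured with the smallest spread of all factors at high density. The log2 signals were 9.42, 9.36 and 9.35 at normal density and 9.79, 9.81 and 9.75 at high density, with every high density culture above every normal density culture. The means were 9.37 ± 0.04 and 9.78 ± 0.03 (SD, n = 3), which is a log2 fold change of 0.41 (SE 0.07, adjusted p = 0.00482 by limma). This 1.33-fold higher signal passed the FDR with any single culture left out, but its 95% interval of 0.26 to 0.56 stayed below the fold change threshold of 0.585. High density replicate 2 was the highest culture for NR5A2, in contrast to its low signals of most other factors.

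RUNX1 (12685396, NM_001256578) had log2 signals of 8.46, 8.37 and 8.43 at normal density and of 8.42, 8.30 and 8.50 at high density, and the densities overlapped. The log2 fold change was −0.014 (SE 0.08, adjusted p = 0.926 by limma) with a 95% interval of −0.20 to 0.17. A change of 1.5-fold in either direction lies outside this interval, and the sign of the small difference turned with other settings.

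RUNX2 (12803139, XM_002697262) gave log2 signals of 8.36, 8.25 and 8.27 at normal density and of 8.99, 8.76 and 8.90 at high density. All high density cultures were above all normal density cultures. The means were 8.29 ± 0.06 and 8.89 ± 0.12 (SD, n = 3), which is a log2 fold change of 0.59 (SE 0.08, adjusted p = 0.00266 by limma). This corresponds to a 1.51-fold higher signal, so that the call rests on a value close to the threshold. It dropped to 0.57 on the log2 scale without normal density replicate 2, to 0.58 without normal density replicate 3, to 0.54 without high density replicate 1 and to 0.55 when the arrays were shifted to the same median, and RUNX2 was then not called, although it still passed the FDR in each case. With unpooled variances in the methods' t-test its adjusted p was 0.0638.

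The profiles most like that of RUNX2 were those of SLC43A3, TMEM204 and AGAP3. Their root mean square differences from RUNX2 over the 6 arrays were 0.03, 0.04 and 0.04 on the log2 scale. The log2 fold changes were 0.61 for SLC43A3, a solute carrier, 0.59 for TMEM204, which started below the background level, and 0.63 for AGAP3.

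**Figure D2:**
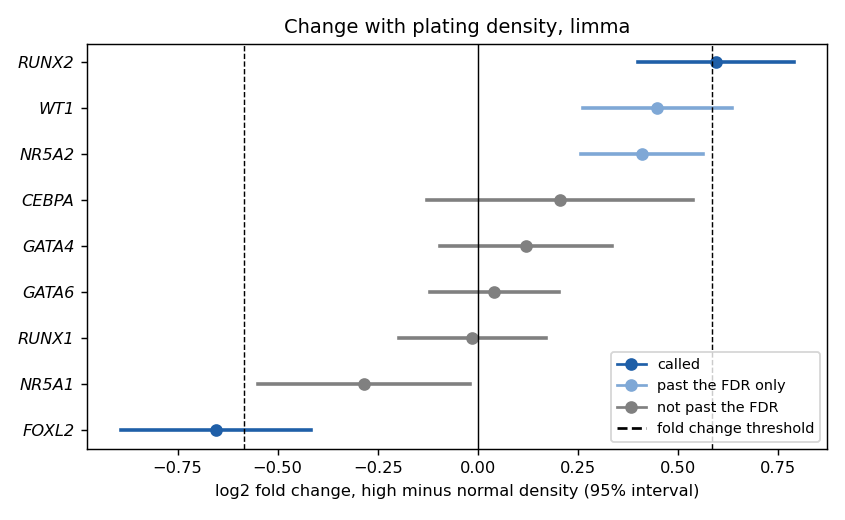
Log2 fold changes of the 9 factors, high minus normal density (horizontal axis), with 95% intervals from limma; dark blue marks called factors, light blue those past the FDR only, grey the others, and dashed lines the fold change threshold of 0.585. FOXL2 at −0.65 and RUNX2 at 0.59 lie just beyond the threshold, and the intervals of GATA4, GATA6, RUNX1 and CEBPA include 0.

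GATA6 (12810695, DQ126151) gave log2 signals of 9.96, 10.02 and 9.94 at normal density and 10.08, 9.96 and 10.00 at high density. The densities overlapped, and the log2 fold change of 0.04 (SE 0.07, adjusted p = 0.735 by limma) had a 95% interval of −0.12 to 0.20.

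GATA4 (12892819, NM_001192877) had log2 signals of 8.09, 8.12 and 7.94 at normal density and of 8.31, 8.05 and 8.14 at high density, which overlapped as well. Its log2 fold change was 0.12 (SE 0.09, adjusted p = 0.419 by limma), with a 95% interval of −0.10 to 0.34. For both GATA factors a change beyond 1.5-fold lies outside the interval.

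WT1 (12733421, XM_003587002) had log2 signals of 4.33, 4.22 and 4.12 at normal density, all below the background level, and of 4.71, 4.62 and 4.69 at high density. The high density cultures were all higher, with high density replicate 2 at the background level itself. The means were 4.22 ± 0.11 and 4.67 ± 0.05 (SD, n = 3). The log2 fold change of 0.45 (SE 0.08, 95% interval 0.26 to 0.64, limma's adjusted p = 0.00777) passed the FDR but not the fold change threshold. With unpooled variances in the methods' t-test the adjusted p of WT1 was 0.0869, so that it did not pass the FDR. Since the normal density signals were below the background level, the size of this difference is limited by it.

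CEBPA (12755716, NM_176784) was below the background level in every culture. Its log2 signals were 3.36, 3.30 and 3.16 at normal density and 3.67, 3.61 and 3.16 at high density, and the densities overlapped. The log2 fold change of 0.20 (SE 0.14, 95% interval −0.13 to 0.54, limma's adjusted p = 0.37) is a difference between signals at background and gives no measure of the transcript.

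**Figure D3:**
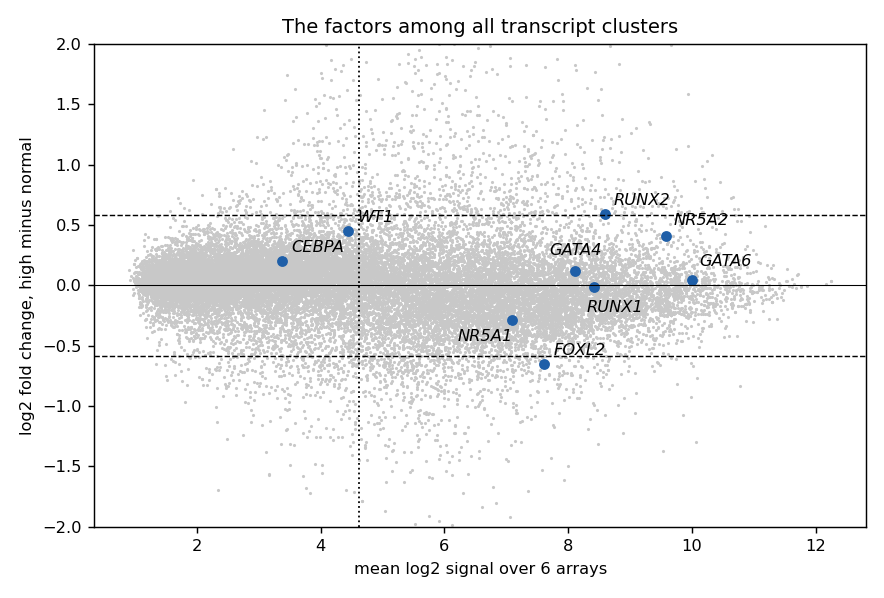
Mean log2 signal over 6 arrays (horizontal axis) against the log2 fold change, high minus normal density (vertical axis), for all transcript clusters (grey) and the 9 factors (blue); the dotted line is the background level of 4.62 and dashed lines are the fold change threshold of 0.585. The axis ends at 2 and −2, which leaves out 96 grey points, and 7 factors lie to the right of the background level.

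Relative changes of close relatives were compared within arrays, for the 3 pairs of paralogs with a row for both genes. For each array the log2 signal of one gene was subtracted from that of the other, and only the shift of this difference with density was read, since signals of different transcript clusters are not comparable in level. NR5A1 shifted against NR5A2 by −0.69 (SE 0.15), a 1.62-fold change of the ratio. Relative to the normal density mean, the differences were −0.16, 0.22 and −0.06 at normal density and −0.61, −0.88 and −0.60 at high density. All high density cultures were lower (two-sided exact permutation test, p = 0.1, adjusted over the pairs p = 0.15). RUNX1 shifted against RUNX2 by −0.61 (SE 0.05), a 1.52-fold change of the ratio, with differences between −0.02 and 0.03 at normal density and between −0.70 and −0.53 at high density. The densities were separate here too (two-sided exact permutation test, p = 0.1, adjusted p = 0.15). GATA4 against GATA6 shifted by 0.08 (SE 0.06), the densities overlapped, and the exact permutation test gave p = 0.3 before and after adjustment. With 3 cultures against 3 this test cannot go below 0.1, so none of the pairs could reach the threshold.

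**Figure D4:**
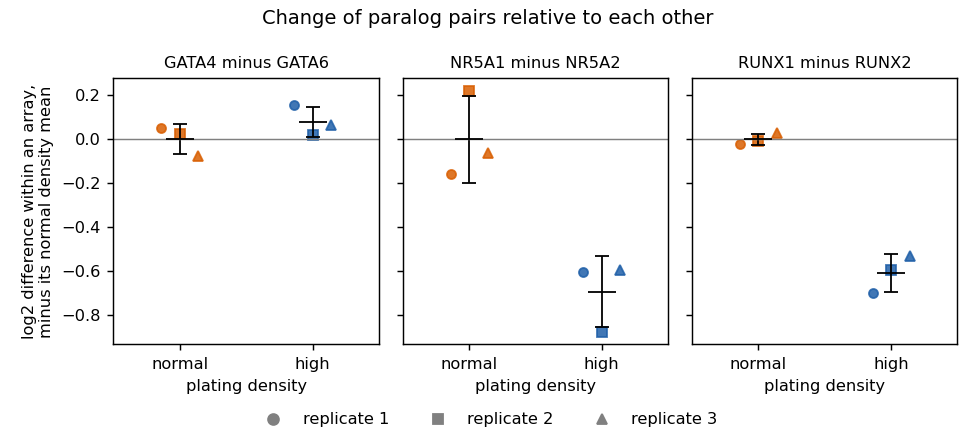
Log2 difference of the members of 3 paralog pairs within each array, after subtraction of its normal density mean (vertical axis), at normal and high plating density (horizontal axis); points are cultures and bars are means ± SD of 3 cultures. At high density the NR5A and RUNX pairs lie between −0.88 and −0.53, below all normal density cultures, while the GATA pair overlaps.

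Other regulators and targets of these factors were counted over 10 lists that hold 91 transcript clusters. Of these, 24 were called, 14 higher and 10 lower at high density, which is 26.4% against the 7.49% of all transcript clusters. Both means were at or below the background level for 25 of the 91, and for 51.2% of all transcript clusters, which limits this comparison. The median log2 fold change over the lists was 0.07. The lists name 92 genes, of which 88 had a row, while ZFPM2, EP300, WNT4 and AREG had none. The lists were drawn up with earlier results of the same arrays known, so their counts are a description.

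Relatives and cofactors of the GATA factors held 5 transcript clusters, and 0 of them were called by limma or by the methods' t-test, with 3 at an unadjusted p below 0.05 in both. Of all 26773 transcript clusters, 8645 had an unadjusted p below 0.05 by limma and 7716 by the methods' t-test. GATA3 and GATA2 passed the FDR with log2 fold changes of 0.37 and 0.30, and the normal density signal of GATA2 was below the background level. The cofactor ZFPM1 had a log2 fold change of −0.08 near that level.

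In the group of NR5A regulators and ovarian steroid receptors, 15 transcript clusters gave 1 called rise and 1 called fall. NR0B2, an atypical nuclear receptor without a DNA-binding domain that represses NR5A activity, rose from 4.09 ± 0.11 to 4.95 ± 0.05 (SD, n = 3), which is a log2 fold change of 0.86 (SE 0.08, adjusted p = 4.44e-04 by limma). At normal density it lay under the background level, so this rise is measured from background. NR0B1, another repressor of NR5A1, was below the background level at both densities, with 2.85 and 2.85. The coactivators NCOA1 and NCOA2 and the estrogen receptor gene ESR2 passed the FDR with log2 fold changes of −0.56, −0.35 and −0.31, below the fold change threshold. NCOA3, with 0.01 and overlapping densities, did not pass the FDR. NRIP1 passed the FDR only, with −0.23 (limma's adjusted p = 0.046). ESR1 had 2 transcript clusters, with −0.31 for the one above the background level and −0.03 for the other.

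Of the RUNX relatives, the partner CBFB and corepressors, 0 of 9 transcript clusters were called by limma or by the methods' t-test, and 3 had an unadjusted p below 0.05 in both. Among all 26773 transcript clusters such a p-value was found for 8645 by limma and for 7716 by the methods' t-test. CBFB, which RUNX1 and RUNX2 share as their non-DNA-binding partner, had mean log2 signals of 9.72 ± 0.04 in the normal density and 9.34 ± 0.16 in the high density cultures (SD, n = 3). The log2 fold change of −0.39 passed the FDR (limma's adjusted p = 0.0282) and was opposite in sign to that of RUNX2. The third family member RUNX3 was below the background level at both densities, with 3.25 and 3.61.

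Members of the CEBP family and its regulators were called in 3 of 6 transcript clusters. DDIT3 (CHOP), a stress-induced CEBP relative that blocks other CEBP factors as a heterodimer, rose from 6.79 ± 0.07 to 7.92 ± 0.15 (SD, n = 3), which is a log2 fold change of 1.13 (SE 0.09, adjusted p = 2.74e-04 by limma). CEBPG, a family member without an activation domain of its own, rose by 0.89 on the log2 scale (SE 0.09, adjusted p = 6.07e-04 by limma). TRIB2, a pseudokinase that promotes the degradation of CEBPA protein, fell from 9.14 ± 0.15 to 7.83 ± 0.12 (SD, n = 3), which is a log2 fold change of −1.31 (SE 0.10, adjusted p = 1.96e-04 by limma). TRIB1, of the same list, went the other way, with 0.29 (limma's adjusted p = 0.0269), and passed the FDR only. CEBPD had −0.54 (limma's adjusted p = 0.00178) and passed the FDR only.

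Genes of the ovarian side of gonadal fate were called in 2 of 9 transcript clusters, and WNT4 had no row. LGR5, a receptor for R-spondins, rose from 2.98 ± 0.12 to 5.31 ± 0.16 (SD, n = 3), which is a log2 fold change of 2.34 (SE 0.10, adjusted p = 2.10e-05 by limma) that started below the background level. IRX3, a homeobox factor of the developing ovary, was called with 0.77 (SE 0.17, adjusted p = 0.0202 by limma), but both means were below the background level, so this value gives no measure of the transcript. The number called in this list was 1 with the methods' t-test (pooled or unpooled variances), with transcript clusters below background removed, at an FDR of 0.01, and without normal density replicate 2 or 3 or high density replicate 1 or 3. The forkhead factor FOXO1 had a log2 fold change of −0.41 and passed the FDR only, and RSPO1 was below the background level throughout.

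On the testicular side of gonadal fate, 3 of 8 transcript clusters were called. SOX9, the factor that FOXL2 is known to hold down in the adult ovary, rose from 5.75 ± 0.10 to 6.58 ± 0.12 (SD, n = 3), which is a log2 fold change of 0.83 (SE 0.09, adjusted p = 9.17e-04 by limma). DHH, a hedgehog ligand made by Sertoli cells and by GC, rose by 1.16 from below the background level (SE 0.10, adjusted p = 2.97e-04 by limma). GDNF, a Sertoli cell growth factor that GC also make, fell by 0.76 on the log2 scale (SE 0.12, adjusted p = 0.00389 by limma). DMRT1, SOX8 and SOX10 were below the background level at both densities. Early gonad factors and partners of WT1 were called in 1 of 9 transcript clusters. This was PAWR, a WT1-binding protein, with a log2 fold change of −0.74 (SE 0.15, adjusted p = 0.0132 by limma), and its call was lost without normal density replicate 1 or 3, with the methods' t-test and at an FDR of 0.01.

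**Figure D5:**
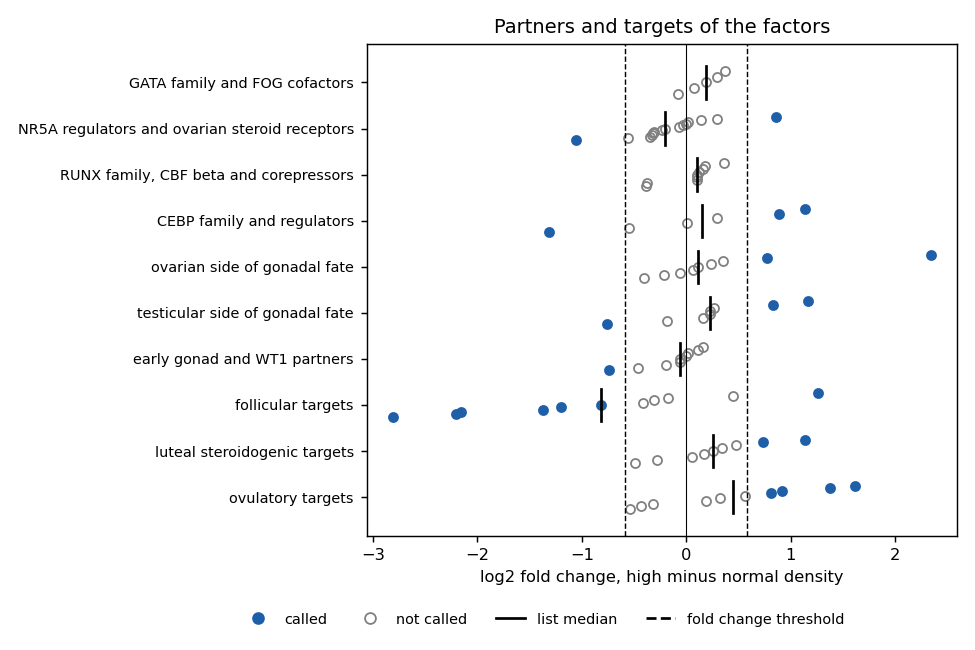
Log2 fold changes, high minus normal density (horizontal axis), of the transcript clusters of 10 lists of partners and targets; filled points are called, open points are not, vertical bars are list medians and dashed lines the fold change threshold of 0.585. The follicular targets have the lowest median, −0.82, and the ovulatory targets the highest, 0.45.

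Targets of the factors in the follicle were called in 7 of 11 transcript clusters, 6 lower and 1 higher, with a median log2 fold change of −0.82. The aromatase gene CYP19A1, with −2.80, the FSH receptor gene FSHR, with −2.21, and the inhibin subunit genes INHA, with −2.16, and INHBA, with −1.37, fell. Another inhibin subunit gene, INHBB, was higher at high density, with 0.44, but did not pass the FDR (limma's adjusted p = 0.0626). The high density mean of CYP19A1 was under the background level, so the size of its fall is limited by it. FST, which encodes the activin-binding protein follistatin and is a known FOXL2 target, fell by 0.82 on the log2 scale (SE 0.10, adjusted p = 0.0013 by limma). The higher one was HSD17B1, which encodes the enzyme that makes estradiol from estrone, with a log2 fold change of 1.26 measured from below the background level.

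Among steroidogenic targets of the NR5A and GATA factors in luteal cells, 2 of 9 transcript clusters were called and both were higher, with a median log2 fold change of 0.26. One of them was MRAP, an accessory protein of melanocortin receptors, with 1.14 (SE 0.13, adjusted p = 9.55e-04 by limma). The cholesterol transport gene STAR, with −0.49, CYP11A1, with 0.26, and HSD3B1, with −0.28, passed the FDR only, as did the electron transfer genes FDX1, with 0.34, and FDXR, with 0.47.

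Ovulatory targets were called in 4 of 10 transcript clusters, all higher. PTX3, a matrix protein of the expanded cumulus, had a log2 fold change of 1.61 and EREG, an EGF-like ligand, of 1.37. ADAMTS1, a matrix protease, rose by 0.92 and RGCC, a cell cycle regulator known as a RUNX target in GC, by 0.81 (limma's adjusted p = 0.00162). PTGS2, the prostaglandin synthase of ovulation, had a log2 fold change of 0.33 with overlapping densities and did not pass the FDR (limma's adjusted p = 0.0939). HAPLN1, below the background level at both densities, passed the FDR only, with 0.56. ABCC4 had a transcript cluster at −0.54, above the background level at normal density alone, and another at −0.43, below it throughout. Both passed the FDR only, and a further ABCC4 cluster below background, at 0.19, did not. TNFAIP6 had −0.32 and did not pass the FDR. AREG had no row.

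The labelled cell type was checked against markers of GC and of other ovarian cells. Of 8 GC markers, FSHR, CYP19A1, INHA, INHBA, AMH, CDH2 and GJA1 were above the background level at normal density and HSD17B1 was below it, while at high density CYP19A1 alone was below it. FSHR, CYP19A1, INHA and INHBA were called lower and HSD17B1 higher. These genes and AMH are the same rows as among the follicular targets above. The other GC markers, CDH2 and GJA1, had the highest signals of the list. Their log2 fold changes were 0.14 and −0.20, and they were not called. The summed linear signal of the GC markers was between 5380 and 5850 at normal density and between 4240 and 4380 at high density. It thus moved with FOXL2, and its part in the fall of FOXL2 was not tested. RUNX1 and CEBPA are also known from leukocytes. All 10 leukocyte markers were below the background level at both densities, with the pan-leukocyte gene PTPRC at 2.16 and 1.94, and 0 of them were called by limma, with 2 at an unadjusted p below 0.05. Among all 26773 transcript clusters 8645 had such a p-value by limma. Of 7 endothelial markers 6 were below the background level. Of the 6 surface epithelium markers, a cell type that also makes WT1, 4 were below it, among them KRT19 at 2.67 and 2.86. MSLN, at 5.61 and 5.75, and CDH1, at 5.73 and 5.89, were above it at both densities. By limma 0 of the 6 were called, with 1 at an unadjusted p below 0.05. All 6 fibroblast markers were above the background level, with the matrix genes LUM at 11.63 and DCN at 10.68 at normal density. LUM and DCN had log2 fold changes of 0.01 and 0.17 and did not pass the FDR. COL1A1 rose by 1.15 on the log2 scale and was called. COL1A2, COL3A1 and PDGFRA passed the FDR only, with 0.38, 0.39 and 0.32. The summed linear signal of the fibroblast list was between 5340 and 5490 at normal density and between 5810 and 5940 at high density. For the theca list the sum was between 362 and 379 and between 849 and 991. Of its genes INSL3, with 1.82, and ACTA2, with 1.15, were called, while the defining theca enzyme gene CYP17A1 was below the background level at both densities, with 2.93 and 2.92. GLI1 and TCF21 were also below the background level at both densities, with log2 fold changes of 0.11 and −0.06. PTCH1 passed the FDR only, with 0.31. The sums of the fibroblast and theca lists thus moved with RUNX2 and SOX9, and their part in these rises was not tested. The summed signal of the surface epithelium list was between 142 and 152 at normal density and between 160 and 169 at high density, and its part in the WT1 difference was not tested.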

How the data were processed

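The authors processed the scanned arrays with the RMA procedure in Affymetrix Expression Console, and deposited its output, a log2 signal for each transcript cluster and culture. No further normalization was applied here. RMA draws the arrays to one distribution, so a change shared by most genes would not be seen. The table has 0 columns of other samples.

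Members were matched by gene symbol, and 6 of the 9 accessions were found under the same symbol in the RefSeq gene table (ARS-UCD2.0). Those of GATA6, RUNX2 and WT1 were not listed there, so these rows rest on the array's own symbol. Densities were compared in R 4.3.3 by the functions lmFit and eBayes of limma 3.58.1, without covariates, over all 26773 transcript clusters, with Benjamini-Hochberg adjustment. Thresholds were a fold change of 1.5 and a p-value and FDR of 0.05. Intervals are limma's 95% intervals without adjustment for the number of genes. The number of arrays limits the precision. The fit was tested on simulated data.

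The members, lists and tests were chosen with earlier results of these data known. The genes named are all members, the targets CYP19A1, FSHR, INHA, FST, STAR, CYP11A1, HSD3B1 and PTGS2, at most the 4 largest called changes of each list, the 3 nearest profiles of each called member, and defining markers. GATA2, GATA3, ZFPM1, NR0B1, NCOA1, NCOA2, ESR1, ESR2, CBFB, RUNX3, CEBPD, FOXO1, RSPO1, DMRT1, SOX8, SOX10, FDX1, FDXR, HSD17B1, HAPLN1, ABCC4 and TNFAIP6 lie outside that choice and were picked with their values in view. The same holds for NCOA3, NRIP1, TRIB1, INHBB, MSLN and CDH1. Of the GC, fibroblast and theca marker lists all genes are named. Labels give the same replicate numbers to both densities, but the deviations of same-numbered cultures from their group means had correlations between −0.05 and 0.05, so they were not treated as pairs. Alternatives were the methods' t-test with pooled and unpooled variances, eBayes with a trend and robust variances, the replicate block, array weights, 2 other scalings, a filter at the background level, an FDR threshold of 0.01 and leaving out each culture. Figures were drawn with matplotlib 3.10.9. The qPCR and hormone measurements were not analysed here. Single values of 2 called list genes are not reported here, although the list counts include them.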

Additional observations from a re-analysis of the deposited data

How the results depend on the processing

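The number of factors called, 2, became 0 with unpooled variances in the methods' t-test and 1 with the arrays shifted to the same median, and was between 1 and 2 with each culture left out. With unpooled variances 4 factors had an unadjusted p below 0.05, as had 6387 of all 26773 transcript clusters. The number past the FDR at any fold change, 4, became 1 with unpooled variances and stayed at 4 in all other alternatives. The factor that still passed with unpooled variances was NR5A2 (adjusted p = 0.0174 by this t-test). The replicate block left 2 factors called and 24 transcript clusters of the lists, as before, and the NR5A1 to NR5A2 shift at −0.69 (two-sided exact sign permutation test, p = 0.25, the smallest 3 pairs allow), and changed no call of a factor. The sign of the smallest differences turned, for RUNX1 to 0.0353 with array weights and 0.011 after a second quantile normalization, with a range of −0.0617 to 0.0408 over left-out cultures, and for GATA6 to −0.0029 with the arrays shifted to the same median. The other 7 factors kept their sign in every alternative run. The number of list transcript clusters called was between 16 and 26 over the alternatives, and leaving out single cultures gave 22 to 24. Each symbol of the paralog pairs has 1 transcript cluster, so averaging over clusters gave no other value, and the CEBPA and CEBPB pair was not analysed. The shifts of the pairs kept their sign with each culture left out, between −0.77 and −0.58 for NR5A, −0.65 and −0.56 for RUNX and 0.04 and 0.11 for GATA. Signals near the background level limit what can be said of CEBPA and WT1.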
